A study of Arabidopsis thaliana with 16 samples.

Results

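Genes whose deposited description names a RING domain were followed through 12 ChIP-seq peak lists, which map where WRKY18, WRKY33 and WRKY40, plant transcription factors, sat on the DNA of Arabidopsis thaliana seedlings. The rule took every gene assigned to a peak whose description holds RING in capitals or "RING finger", apart from 10 named U-box genes. It found 56 of the 4316 genes in the lists. Some known RING ligases, described further below, do not match it, so the genes found are not all RING genes in the lists. The flowering genes FT and FLC matched only through the letters inside the word FLOWERING, with 1 WRKY33 peak each, scored 10.3 for FT at 2 h and 10.1 for FLC at 0 h. They were set aside, which left 54 genes. Of these, 17 are described as RING-H2 proteins, 27 as RING/U-box, 7 as RING/FYVE/PHD and 3 as RING finger proteins. A description of the RING/U-box or RING/FYVE/PHD kind names a group of related zinc-binding or U-box folds and does not say that the protein is a ubiquitin ligase. The AT2G37520 protein, for example, is described as an acyltransferase with such a domain.

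Ubiquitin is passed from an activating enzyme (E1) to a conjugating enzyme (E2) and then to a target protein, which a ligase (E3) selects. In a RING ligase the RING domain, a fold that holds zinc ions, brings the loaded E2 next to the target. The ATL proteins are a plant group of RING-H2 ligases with a membrane-spanning stretch, and several of their transcripts, ATL2 among them, rise early after plants meet microbial elicitors. WRKY factors bind a short DNA element, the W box, which is frequent upstream of defence genes.

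The seedlings were 12 days old, in the Col-0 background, and were kept under long days (16 h light, 8 h dark). Each HA line, a complementation line with an HA-tagged factor, was called Col-0 WRKY18-HA, Col-0 WRKY33-HA or Col-0 WRKY40-HA, and untagged Col-0 WT was the control. Material was taken untreated (0 h) or 2 h after the medium was replaced by medium with 1 µM flg22, a piece of bacterial flagellin that sets off immune signalling. There were 2 biological replicates of each of the 8 combinations, 16 samples in all, precipitated with an anti-HA antibody from 2 g of seedlings each. The sources used here do not give the promoter behind each tagged gene or the number of independent lines. No untreated seedlings were taken at 2 h, so the effect of flg22 cannot be told apart from that of time or the change of medium. By their labels, the 3 HA lines of one time and replicate shared 1 WT control, so their peaks are not independent of each other.

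The lists held 9 to 3272 peaks, 16600 in all, with a median of 141 to 678 HA tags per peak and 4 to 295 WT tags. The 2 h lists of replicate 1 held 1653 to 2017 peaks and those of replicate 2 held 2656 to 3272. Scores below are the authors' peak scores, which start at 10 and whose scale is not stated. Some peak numbers, 0 to 276 per list, are absent from the lists, so a gene that is not listed was not shown to be free of the factor. The 54 genes had 188 peaks at 66 places on the genome (merged sites). Most had 1 such site (44 genes), while 8 had 2 sites and 2 had 3.

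At 2 h, 10 of the 54 genes had a WRKY18 peak in both replicates, 16 had a WRKY33 peak in both, and 13 had a WRKY40 peak in both. For WRKY18 the share was 18.5% (exact 95% interval 9.25 to 31.4%), beside 31.2% of all 4316 listed genes. For WRKY33 it was 29.6% (18 to 43.6%), beside 27.6% of all listed genes. For WRKY40 it was 24.1% (13.5 to 37.6%), beside 35.2%. The WRKY33 share was close to the background. The other shares were lower than theirs, but all 3 background values lay inside the exact intervals. In at least 1 line 22 genes were listed in both replicates (40.7%), beside 50% of all listed genes. The 9 listed U-box genes left out by the rule, which include the flg22-response regulators PUB22, PUB23 and PUB24, stood in both WRKY18 lists in 6 cases, in both WRKY33 lists in 7 and in both WRKY40 lists in 9. These U-box genes are a short list of named genes, while the RING genes come from a search of descriptions. The sets were picked in unlike ways, so their shares do not compare U-box with RING genes in general.

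**Figure D1:**
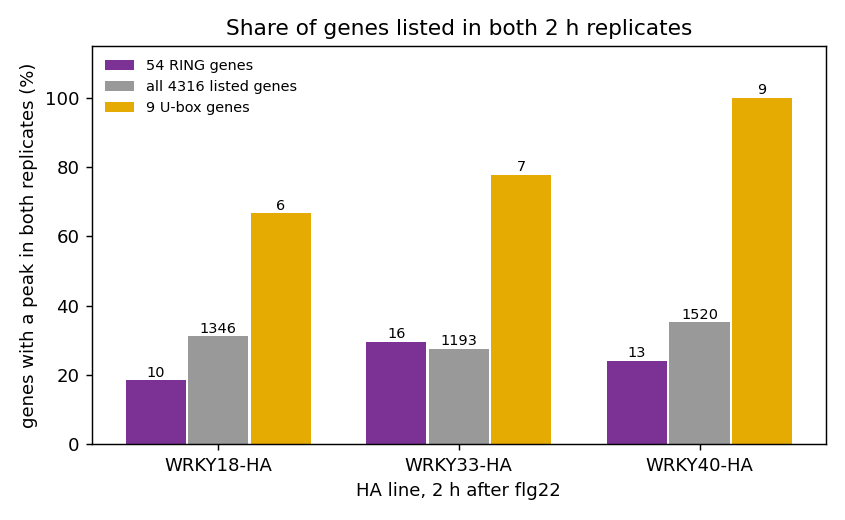
Share of genes (%) with a peak in both 2 h replicates of each HA line, for the 54 RING genes, all 4316 listed genes and the 9 listed U-box genes. Numbers above the bars are genes. The RING bars stand at 18.5, 29.6 and 24.1%, and the U-box bars are the highest in each line. The U-box genes are a short list of named genes and are not matched to the RING genes.

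The count of genes differed more between replicates than between lines. Of the 54 genes, WRKY18 listed 10 in replicate 1 and 31 in replicate 2 (18.5 and 57.4%), beside 37.0 and 59.1% of all listed genes. WRKY33 listed 19 and 29 (35.2 and 53.7%), beside 35.5 and 54.4%. WRKY40 listed 16 and 33 (29.6 and 61.1%), beside 41.0 and 64.2%. The gap between replicates was thus also present over all listed genes. Genes whose 2 h peaks all came from replicate 2 numbered 25 (46.3%), beside 36.9% of all listed genes. They included ATL67, RHA3A, MEE16, ATL75 and ATL80 of the RING-H2 group and SHA1, a gene named for arrest of the shoot meristem. A further 3 genes, AT2G37520, AT4G12210 and AT5G24870, had no 2 h peak (5.56%, beside 4.08% of all listed genes). Of the 54 genes, 13 stood in 1 2 h list only (24.1%, beside 26%). All of these but AT3G10815 and ATL52 were also among the 25 genes of replicate 2 alone.

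By description, the RING-H2 genes stood in both 2 h lists in 4 (WRKY18), 5 (WRKY33) and 6 (WRKY40) of 17 cases. The RING/U-box genes did so in 4, 8 and 5 of 27 cases. As shares these were 23.5, 29.4 and 35.3% of the RING-H2 genes and 14.8, 29.6 and 18.5% of the RING/U-box genes. Over all listed genes the shares were 31.2, 27.6 and 35.2%. Of the 7 RING/FYVE/PHD genes, 3 had a WRKY33 peak in both lists (AT1G02610, AT3G47550 and AT5G62460), and 0 had a WRKY18 or WRKY40 peak in both. The peaks assigned to AT1G02610 were annotated to the start of AT1G02620, and those of AT5G62460 to the start of AT5G62440. Either gene of each pair could therefore be the one concerned. Of the 3 RING finger genes, APD1 and EDA40 stood in both WRKY18 lists and both WRKY40 lists, and 0 genes stood in both WRKY33 lists. These groups are small and the differences between them were not tested.

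**Figure D2:**
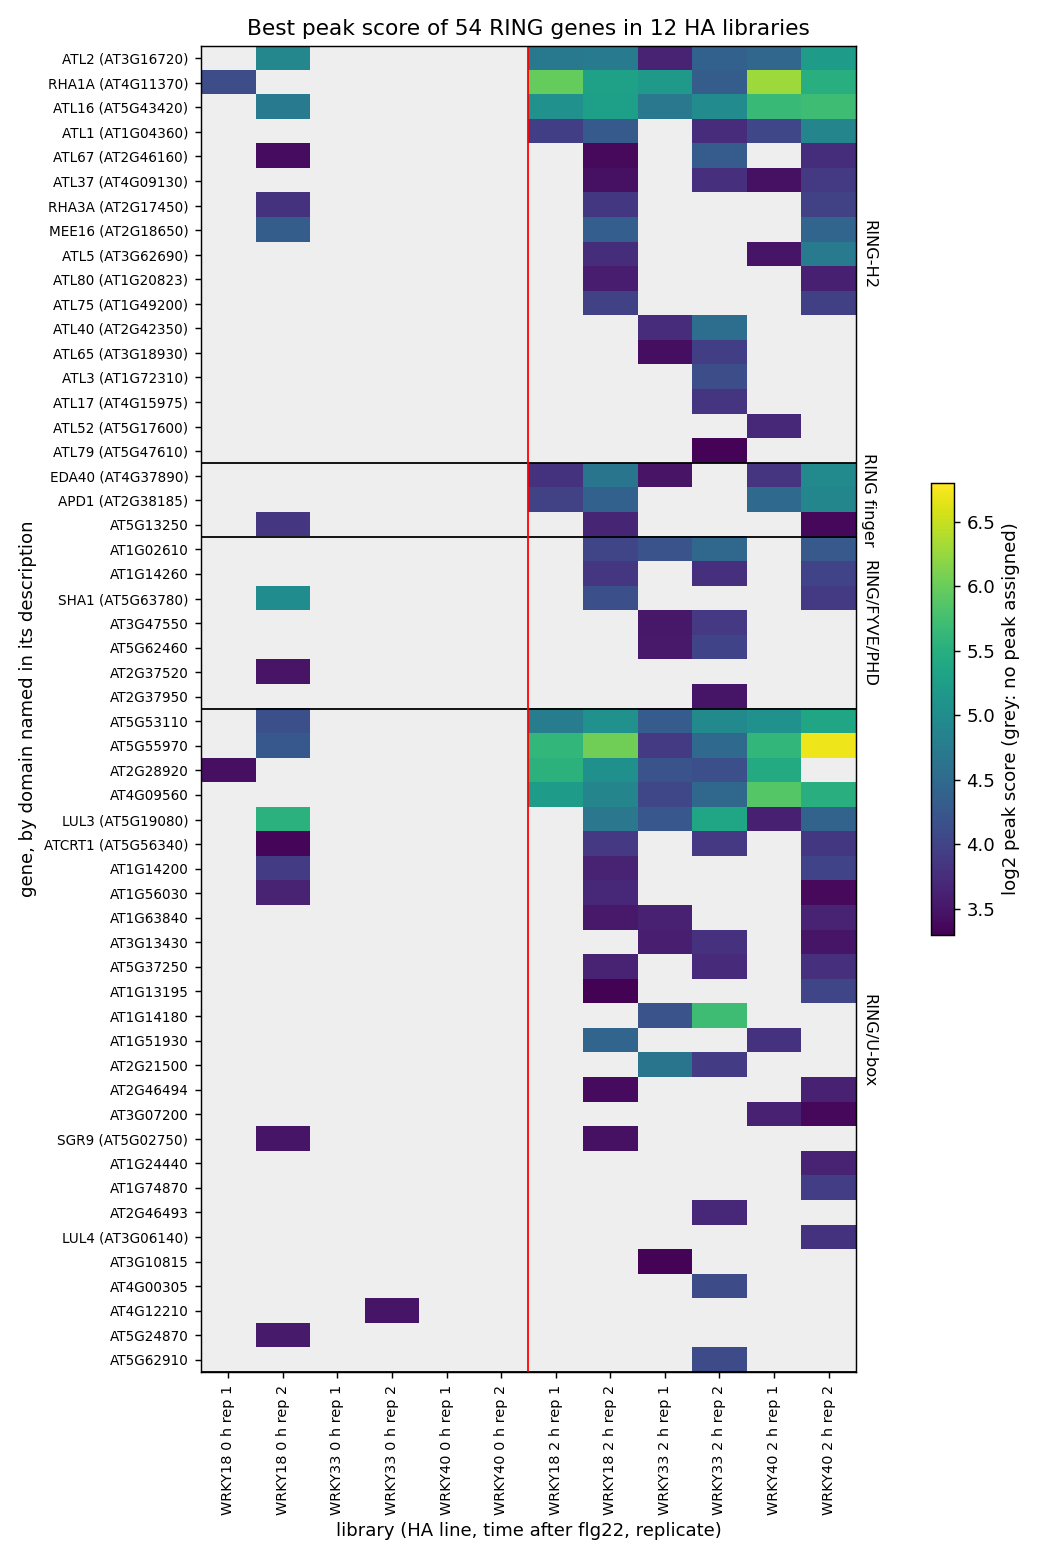
Best peak score (log2, colour) of each of the 54 RING genes, in rows grouped by described domain, in the 12 HA lists, in columns by time, line and replicate. Grey marks a gene without an assigned peak, and the red line separates 0 h from 2 h. The 0 h columns are nearly empty apart from WRKY18 replicate 2, and 6 genes are coloured in all 6 columns at 2 h.

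Of the 54 genes, 6 were listed in all 6 libraries at 2 h (11.1%, beside 13.9% of all listed genes). These were the RING-H2 genes ATL2, ATL16 and RHA1A and the RING/U-box genes AT5G55970, AT4G09560 and AT5G53110. Their scores are described one by one, by group.

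ATL2 (AT3G16720) encodes the membrane RING-H2 protein after which the ATL group is named. Its peaks fell at 2 places that differed between the factors. The WRKY33 peaks lay at the gene start, on chromosome 3 from 5692281 to 5692963, with scores of 12.5 in replicate 1 and 20.9 in replicate 2. The WRKY18 and WRKY40 peaks lay 1565 to 2372 bp past the start, on chromosome 3 from 5693945 to 5695519. There the best WRKY18 scores were 26.4 and 26.6 and the best WRKY40 scores 22.0 and 37.7. This place held 2 neighbouring peaks, and the best one differed between the WRKY18 replicates. Nearer and farther from the start, WRKY18 scored 26.4 and 13.1 in replicate 1 but 16.6 and 26.6 in replicate 2. WRKY40 scored 22.0 and 16.5 in replicate 1 and had 1 wide peak in replicate 2. No WRKY18 or WRKY40 list had a peak at the start, and no WRKY33 list had one at the downstream place. The authors annotated the downstream peaks to the transcript ends of ATL2 and of the next gene, AT3G16730 (HEB2), so either gene could be the nearer one. The 0 h peak of WRKY18 replicate 2, with a score of 30.2, was also at the downstream place.

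ATL16 (AT5G43420), another membrane RING-H2 gene, had its strongest peaks far upstream, 3674 to 3842 bp before the start (chromosome 5, 17447451 to 17448364). In replicates 1 and 2 WRKY18 scored 33.6 and 38.8 there, WRKY33 scored 25.9 and 31.7, and WRKY40 scored 50.8 and 52.4. Both WRKY40 values were above all others, and the WRKY33 values were the lowest. These scores are not corrected for the level of each library. On the log2 scale, relative to each library's median over the sites listed in all 6 libraries, WRKY33 stood at 0.61 and 0.65. WRKY18 then stood at 0.57 and 0.53 and WRKY40 at 1.15 and 0.67, so WRKY33 was no longer the lowest. The WRKY33 scores of 25.9 and 31.7 were ranks 129 of 1653 and 143 of 2656 in its lists, the best mean rank percentile of the 16 RING genes listed in both. A nearer site, 2264 to 2439 bp before the start, had peaks in all 4 WRKY18 and WRKY40 lists (15.5 to 19.0) and in neither WRKY33 list. The third site was close to the start (77 to 276 bp before it) and had peaks in 5 of the 6 lists at 2 h, with scores of 10.9 to 23.7.

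RHA1A (AT4G11370) encodes a small RING-H2 protein. It had strong peaks 2315 to 2415 bp past its start, on chromosome 4 from 6909554 to 6910506, which the authors annotated as intergenic. WRKY18 scored 63.0 and 39.4 there, and WRKY40 scored 78.1 and 45.7, so replicate 1 was the higher one in both lines. These values put the site at ranks 49 of 1801 and 20 of 2017 in replicate 1. WRKY33 scored 36.2 at this place in replicate 1. In replicate 2 it was not listed there, and its only peak was 99 bp before the start, with a score of 20.1. RHA1A was therefore listed in both WRKY33 replicates through different sites. The next gene in the RefSeq order is AT4G11373.

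AT5G55970, a RING/U-box gene, had the highest WRKY40 score of all 54 genes. Its site was 1114 to 1181 bp before the start at 2 h (chromosome 5, 22665324 to 22666810). WRKY18 scored 48.9 and 65.6, and WRKY40 scored 49.1 and 105, the last at rank 24 of 3272. WRKY33 scored 14.8 and 22.5. The WRKY33 values were below all 4 others without overlap, and the 105 of WRKY40 replicate 2 stood apart from the 49.1 of replicate 1. In tags, the WRKY18 and WRKY40 peaks held 2868 to 4967 and the WRKY33 peaks 664 and 693, over 45 to 54 in WT. These tags are not scaled for library. The WRKY33 lists at 2 h had lower tags throughout, with medians of 282 and 222 per peak beside 570 to 678. With tags scaled between libraries (edgeR), the log2 difference of WRKY33 from the others was -0.89 at this site. Some of these peaks were annotated to the transcript end of the neighbour AT5G55960.

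AT4G09560 encodes a protein with a protease-associated domain beside its RING/U-box domain. Its main site was 1002 to 1090 bp before the start (chromosome 4, 6044466 to 6045259). Both WRKY40 replicates were listed there with 58.9 and 45.3, both WRKY18 replicates with 37.7 and 29.3, and WRKY33 in replicate 1 alone with 16.5. A site nearer the start, at 378 to 397 bp before it, was listed in the 3 libraries of replicate 2, where WRKY18 scored 29.7, WRKY33 22.4 and WRKY40 19.0.

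**Figure D3:**
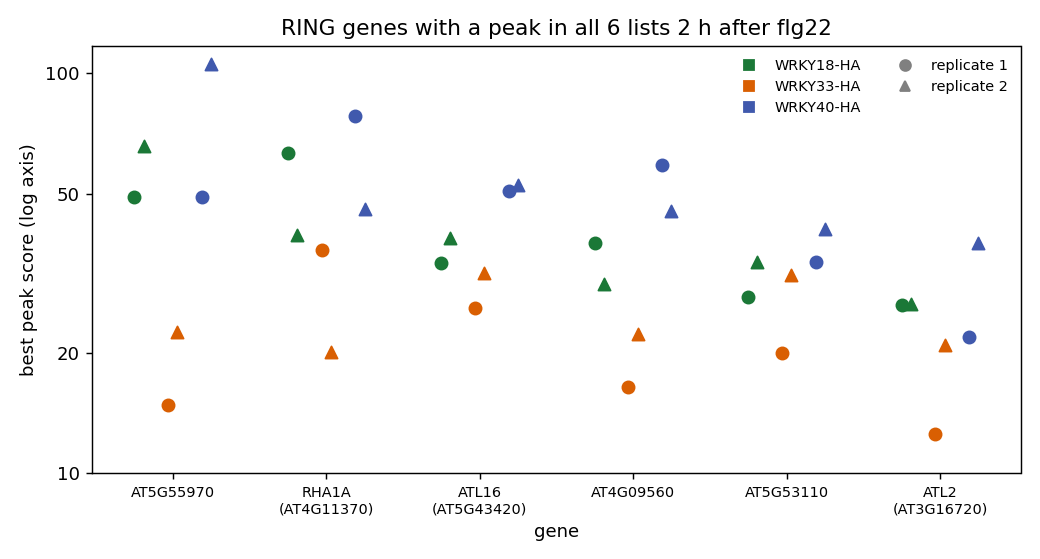
Best peak score (log axis) in each 2 h library of the 6 RING genes listed in all 6 libraries. Colours are HA lines and symbols are replicates. For AT5G55970 both WRKY33 points lie below all WRKY18 and WRKY40 points at the same site. The points of a gene can stand for different sites: both WRKY33 points of ATL2 and of AT5G53110, the WRKY33 replicate 2 point of RHA1A, and the WRKY33 and WRKY18 replicate 2 points of AT4G09560 are from another site than the rest.

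AT5G53110 had 2 sites that were both listed in all 6 libraries. At the promoter site, 462 to 485 bp before the start (chromosome 5, 21528188 to 21528915), WRKY18 scored 27.6 and 33.7, WRKY33 scored 16.2 and 20.9, and WRKY40 scored 33.8 and 40.9. At the site in its only annotated intron, 953 to 971 bp past the start (21529779 to 21530184), WRKY18 scored 12.0 and 15.5, WRKY33 scored 20.0 and 31.3, and WRKY40 scored 15.5 and 22.2. In both replicates WRKY33 was the lowest factor at the promoter site and the highest at the intron site. The promoter score divided by the intron score was 2.30 and 2.18 in the WRKY18 libraries, 2.17 and 1.84 in those of WRKY40, but 0.808 and 0.667 in those of WRKY33. This ratio is taken within a library, so a constant factor between libraries cancels, while a difference in the span of scores does not. The groups did not overlap (log2 difference -1.53). A permutation test of 2 against 4 libraries has only 15 splits, too few to decide whether this difference is more than chance. The gene was also picked after its values were seen, so no conclusion is drawn from such a test.

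**Figure D4:**
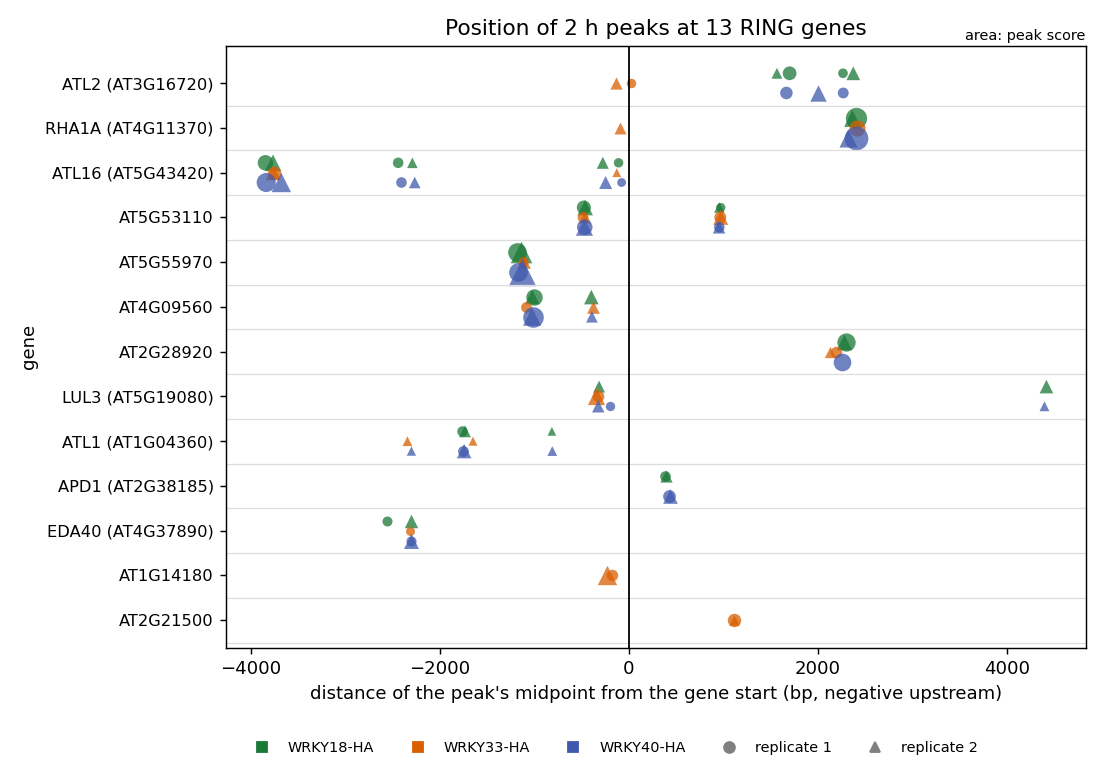
Distance in bp of each 2 h peak's midpoint from the gene start (0, negative upstream) at 13 RING genes, with symbol area by peak score, colour by HA line and shape by replicate. WRKY33 peaks of ATL2 sit at the start while those of WRKY18 and WRKY40 lie 1565 to 2372 bp past it. AT5G53110 has all 3 colours at both of its sites.

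AT2G28920 and LUL3 were listed in 5 of the 6 libraries at 2 h. AT2G28920, a RING/U-box gene, had peaks 2125 to 2298 bp past its start at 2 h (chromosome 2, 12419563 to 12421028). WRKY18 scored 46.7 and 33.3, WRKY33 18.4 and 17.8, and WRKY40 43.5 in replicate 1, while replicate 2 of WRKY40 did not list it. LUL3 (AT5G19080), related to the ubiquitin ligase LOG2, had its best WRKY33 scores, 18.9 and 41.3, at 326 and 353 bp before the start. At the same site WRKY40 scored 12.2 and 21.4, and WRKY18 19.9 in replicate 2 only. WRKY18 replicate 2 had a higher score, 25.9, at a site 4414 bp past the start.

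Genes listed in both WRKY33 lists and in no 2 h list of the other lines numbered 6 (11.1%), beside 4.63% of all listed genes. They were AT1G14180, AT2G21500, ATL40, AT5G62460, AT3G47550 and ATL65. The site of AT3G47550 also held a WRKY40 peak of replicate 2 (12.2), which the authors assigned to AT3G47543, so that by site 5 remain. AT1G14180 led them, with scores of 18.4 and 52.6 at 182 and 229 bp before its start. It stood at rank 389 of 1653 in replicate 1 and at rank 23 of 2656 in replicate 2, so the replicates placed it very differently. AT2G21500 scored 25.3 and 14.9 in intron 2 of the gene, and the membrane RING-H2 gene ATL40 13.4 and 23.7 upstream. AT5G62460 scored 11.7 and 16.1, in peaks annotated to the start of AT5G62440. ATL65 and AT3G47550 were close to the lowest listed score in replicate 1, at 10.7 and 11.5.

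Genes listed in both lists of WRKY18 and of no other line numbered 0, beside 0.371% of all listed genes. For WRKY40 there was 1 such gene (1.85%, beside 0.811%), AT3G07200, with scores of 12.3 and 10.3. ATL1, APD1 and EDA40 were listed in both replicates of WRKY18 and of WRKY40 but not in both of WRKY33 (5.56%, beside 12.9% of all listed genes). APD1, named for a role in pollen development, had WRKY18 scores of 15.8 and 20.8 and WRKY40 scores of 22.7 and 30.0, all 385 to 437 bp past its start. EDA40, named for arrest of the embryo sac, had WRKY18 scores of 14.0 and 25.3, WRKY40 scores of 14.3 and 31.4, and a WRKY33 score of 11.2 in replicate 1. ATL1 had WRKY18 scores of 15.4 and 19.6 and WRKY40 scores of 16.5 and 29.7, with WRKY33 peaks of 13.4 and 11.5 in replicate 2.

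The remaining genes had weaker peaks or were listed less often. AT1G02610 had WRKY33 scores of 18.3 and 22.2, with WRKY18 (16.3) and WRKY40 (19.5) in replicate 2. ATL5 scored 11.3 and 26.5 for WRKY40 and ATL37 11.0 and 14.9, and both had a WRKY18 peak in replicate 2. AT3G13430 was listed in both WRKY33 replicates (12.0 and 13.9), but at places 104 bp before and 1629 bp past its start. The best RING gene peaks ranked above the list average in some libraries and below it in others. The median rank percentile, where a low value is a strong peak, was 16.4 for the 10 genes of WRKY18 replicate 1, beside 46.4 for all listed genes. In the other 2 h lists it lay between 33.9 and 56.4, beside 46.2 to 47.3.

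The best peaks lay at varying distances from the gene start. In replicate 1, 2 of 10 WRKY18 genes (20.0%), 11 of 19 WRKY33 genes (57.9%) and 6 of 16 WRKY40 genes (37.5%) had their best peak within 1000 bp of the start. In replicate 2 the shares were 54.8, 75.9 and 66.7%. Over all listed genes the WRKY18 shares were 60.7 and 61.3%, the WRKY33 shares 64.8 and 64.7%, and the WRKY40 shares 60.7 and 61.8%. The low WRKY18 and WRKY40 shares in replicate 1 rest on few genes, among them RHA1A, AT2G28920, ATL2, ATL16 and ATL1. The shares also differed between the replicates of each factor, and no difference was tested.

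Scores were compared between factors at the 587 sites listed in all 6 libraries at 2 h, after centring the log2 score of each library on its median site. A limma fit across all sites, with Benjamini-Hochberg adjustment and a threshold of 0.05, called 122 sites (20.8%) between WRKY33 and the mean of WRKY18 and WRKY40, 61 higher and 61 lower in WRKY33. Of 5 sites at RING genes, 2 were called. The intron site of AT5G53110 was higher in WRKY33 by 1.14 on the log2 scale (SE 0.25, limma adjusted p = 0.0240). The site of AT5G55970 was lower in WRKY33, with a log2 difference of -1.32 (SE 0.28, limma adjusted p = 0.0213). The promoter site of AT5G53110 (-0.39, SE 0.24, limma adjusted p = 0.277) and the far upstream site of ATL16 (-0.10, SE 0.26, limma adjusted p = 0.797) did not pass. The last was a merged site that joined peaks near the start of the neighbour AT1G51920 with peaks 478 to 499 bp past the start of AT1G51930. Its value (0.62, SE 0.24, limma adjusted p = 0.105) is not one for AT1G51930, since both WRKY33 peaks (19.2 and 24.0) lay near the AT1G51920 start and were assigned to that gene. The median difference was -0.10 over the 5 merged sites and 0.05 over all sites.

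Both calls leaned on both WRKY33 libraries. Without WRKY33 replicate 1 the fit called 2 of 587 sites and without replicate 2 it called 0, neither time at a RING gene, and the lone library was assumed to vary like the other groups. The differences themselves then ran from 0.94 to 1.34 for AT5G53110 and from -1.49 to -1.14 for AT5G55970. With the replicate number as a block the fit called 292 sites, with those of AT5G53110 and AT5G55970 among them. The WRKY33 scores spanned less than the others, with an SD of log2 score of 0.54 and 0.63 beside 0.75 to 0.82, and the part of this in the 2 calls was not tested. Before centring the median WRKY33 difference over all sites was -0.44. Without centring 134 sites were called, 9 higher and 125 lower, and the AT5G53110 intron site did not pass (0.66, limma adjusted p = 0.158). With the ratio of HA to WT tags in place of the score, AT5G55970 did not pass (-0.65, limma adjusted p = 0.0689).

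**Figure D5:**
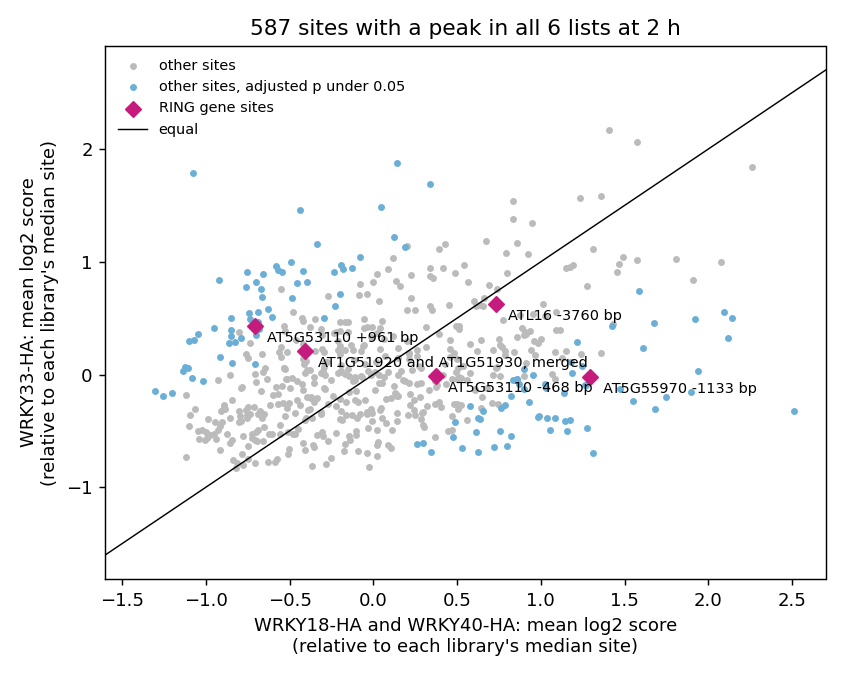
Mean log2 score of WRKY33-HA against that of WRKY18-HA and WRKY40-HA at the 587 sites listed in all 6 libraries at 2 h, each library relative to its median site. The line marks equal values, and blue points are sites with adjusted p under 0.05. The AT5G53110 intron site lies above the line and the AT5G55970 site below it, while ATL16 lies near it. The WRKY33 value of the merged site comes from peaks of AT1G51920.

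Between WRKY18 and WRKY40 the same limma fit called 0 of the 587 sites (0%), with 5 sites at unadjusted p under 0.05. The edgeR test on tags called 0 and DESeq2 called 2. At the 5 RING gene sites the WRKY18 minus WRKY40 difference ran from -0.36 at ATL16 to 0.04 at the merged site of AT1G51920 and AT1G51930, each with a limma adjusted p of 0.999. A p that misses the threshold does not show that the factors were alike at these sites. The standard errors of 0.28 to 0.32 also leave room for differences of that size.

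Before treatment RING genes were listed almost solely for WRKY18. No RING gene stood in both 0 h lists of any line. Of all listed genes, 4.94% stood in both WRKY18 lists, 0.0695% in both WRKY33 lists and 0% in both WRKY40 lists. The WRKY18 list of replicate 1 held 2 RING genes (5.89% of all listed genes stood in that list), RHA1A with 17.5 and AT2G28920 with 10.9. That of replicate 2 held 16 (29.6%, beside 38.4%). The highest were LUL3 with 46.2, SHA1 with 32.1, ATL2 with 30.2 and ATL16 with 26.6. WRKY33 had 0 RING genes at 0 h in replicate 1 (0.209% of all listed genes) and 1 in replicate 2 (1.02%), AT4G12210 with a score of 11.3. WRKY40 had 0 in both lists (0.51 and 0.44% of all listed genes), which held 31 and 20 peaks.

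Within WRKY18 replicate 1, RHA1A and AT2G28920 scored higher at 2 h than at 0 h, going from 17.5 to 63.0 and from 10.9 to 46.7. These scores are not centred. The median over the 195 sites listed in all 4 WRKY18 libraries was also higher at 2 h in replicate 1. The 2 rises therefore cannot be read as particular to these genes. Whether they were larger than the rise of the median was not tested. Within WRKY18 replicate 2, 16 RING gene sites had a peak at both times, and 8 scored higher at 2 h. Their median log2 difference was -0.01, beside 0.24 over all 1533 such sites, of which 68.5% scored higher at 2 h. AT5G55970 went from 19.1 to 65.6, a log2 difference of 1.78, and AT5G53110 from 17.8 to 33.7 (0.92). ATL16 went from 26.6 to 38.8 (0.55) and ATL2 from 30.2 to 26.6 (-0.19). SHA1 went from 32.1 to 17.9 (-0.85). The LUL3 site 4319 to 4414 bp past the start went from 46.2 to 25.9 (-0.84). These values come from 1 library at each time, so they have no replicate check. A limma fit of WRKY18 at 2 h against 0 h covered 195 sites listed in all 4 libraries, with 0 sites at RING genes, and called 0 of them (0%). At unadjusted p under 0.05 there were 19, the edgeR test called 0, DESeq2 called 1, and limma with the replicate block called 53.

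Genes of the wider ubiquitin pathway were followed through lists written from general knowledge. Apart from ATL2, none of the listed ones falls under the rule. Of the 27444 protein-coding genes of chromosomes 1 to 5 in the RefSeq table, 14.6% were in any list, and 4.68% had WRKY18, 4.1% WRKY33 and 5.24% WRKY40 peaks in both 2 h lists. Of 18 RING ligases linked to immunity, 10 were in any list, and 6 had WRKY18, 4 WRKY33 and 5 WRKY40 peaks in both 2 h lists (33.3, 22.2 and 27.8%). These genes were chosen with earlier results known, so their shares are a description. A gene counts here wherever its peaks lie, and scores are those of its best peak in each list. ATL31, which acts in the carbon and nitrogen response and in defence, had WRKY18 scores of 24.7 and 45.4, WRKY33 scores of 18.3 and 20.1, and WRKY40 scores of 32.8 and 57.5. Its best WRKY18 and WRKY40 peaks were upstream in replicate 1 and past the gene start, at 1602 and 1610 bp, in replicate 2. BRG1, of the family of the Botrytis response ligase BOI, had WRKY18 scores of 39.0 and 44.4 and WRKY40 scores of 25.7 and 55.9, and its WRKY33 peaks (10.6 and 20.4) lay at different places. BOI had WRKY18 scores of 18.7 and 45.5 and WRKY40 scores of 11.3 and 41.4. NLA, which acts in salicylic acid accumulation and nitrogen limitation, had WRKY18 scores of 21.6 and 16.6 and WRKY40 scores of 22.4 and 15.3. BRG3 was in both WRKY18 lists (10.3 and 12.9, at 5181 and 4350 bp past the start) and ATL9 in both WRKY33 lists (11.6 and 14.9). ATL6, ATL55, KEG, RIN3, MIEL1, HUB1, HUB2 and RGLG1 were in no list.

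Of 14 RING ligases of hormone and stress responses, 2 were listed (14.3%, beside 14.6% of all protein-coding genes). RDUF1, which acts in the drought response, stood in both 2 h lists of all 3 factors, with WRKY18 scores of 12.2 and 22.9, WRKY33 scores of 11.9 and 26.3, and WRKY40 scores of 15.5 and 21.7. Its WRKY33 peaks lay at different places, 1807 bp past the start in replicate 1 and 467 bp before it in replicate 2. RDUF2 had a WRKY33 peak of 18.3 in replicate 1. Of 21 genes for E1 and E2 enzymes, cullins and their partners, 1 was listed (4.76%), ASK2, with a WRKY40 peak of 10.1 in replicate 2. Of the 10 U-box genes 9 were listed, all but PUB13. Among them AT5G37490 had the highest WRKY33 scores, 32.5 and 52.9, beside WRKY18 scores of 36.8 and 33.7 and WRKY40 scores of 32.2 and 37.5.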

How the data were processed

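Chromatin was precipitated with an anti-HA antibody from 12 HA-tagged and 4 untagged samples, amplified linearly and sequenced single-end (100 bp, 7 to 20 M reads a sample), per the labels' protocols. The submitters' processing notes name build TAIR10, HOMER, Bowtie 0.12.7, cutadapt 1.2.1 and FastQC 0.11.2; the sources used here name no peak caller or threshold. Replicates were not pooled. Per the file headers, the authors gave each peak a score and a tag count for the HA library and for WT, fold enrichment ratios of the HA value over WT, a −log10 q-value, an assigned gene and a distance to its start. Coordinates are 1-based. Depth is known here only as tags per peak, and the exact intervals (95%) cover counting error only.

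Genes were chosen by their deposited description, and the RING genes and the gene lists were chosen with earlier results of these data known. All 56 matched the RefSeq gene table (assembly TAIR10.1), which was used for symbols and gene order. Peaks overlapping by at least 1 bp were merged into sites. Named genes were, per line at 2 h, the 8 best by mean rank percentile among those in both lists, up to 4 genes listed for 1 line alone, sites called by limma and the fixed lists; others were named after their values were seen. Scores were compared with limma 3.58.1 in R 4.3.3 on centred log2 scores. A count test was kept as an alternative (edgeR 4.0.16, DESeq2 1.42.0), because tags were counted in intervals that differ between libraries. Within a time, replicate numbers mark a shared WT control, per the labels. Deviations of same-numbered libraries correlated at 0.53, 0.57 and 0.81 between lines and at 0.69 between times. The 0 h and 2 h libraries have different WT controls, and what else same-numbered libraries share was not tested. The main fits carry no replicate block. On simulated scores with log2 changes of 2, limma recovered 100% of 100 changed sites among 587 in the line comparison (2.91% of calls false). It recovered 58.3% of 48 among 195 in the time comparison (3.45% false). The simulated noise was independent between libraries and had 1 spread for all, unlike the data. The planted changes were also larger than the 2 differences called at RING genes. These percentages therefore do not measure how the fit performs on the real scores. The rest was done in Python 3.11.15 (scipy 1.17.1, pandas 2.3.3, numpy 2.4.6), with figures from matplotlib 3.10.9. Promoter motifs and protein patterns were not analysed here.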

Additional observations from a re-analysis of the deposited data

How the results depend on the processing

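The counts of RING genes in both 2 h lists (WRKY18 10, WRKY33 16, WRKY40 13) fell to 3, 9 and 6 with peaks within 1000 bp of the start. With the better-scoring 50% of each list, WRKY33 had 10 and WRKY40 had 8. With the 36 genes whose description holds RING finger or RING/, WRKY18 had 5 and WRKY40 had 6. Lists of equal length (10, 16 and 10) and peaks of both replicates at 1 site (11, 13 and 15) stayed within 1.5 times. Without 1 replicate the ranges were 10 to 31, 19 to 29 and 16 to 33 at 2 h, and 2 to 16 for WRKY18 and 0 to 1 for WRKY33 at 0 h. The WRKY33 contrast, 122 sites by limma, gave 56 at sites with a score in the better 50%, 210 with DESeq2, 160 with edgeR and 0 to 101 without 1 library; WRKY33 replicates decide the last (2 and 0), and without WRKY40 replicate 2 it gave 79.

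With the replicate block the WRKY33 contrast called 292 sites and the WRKY18 time contrast 53 in place of 0; beside the merged site of AT1G51920 and AT1G51930 (limma adjusted p = 0.0167) it changed no other call at a RING gene. DESeq2 called 2 sites between WRKY18 and WRKY40 and 1 between the times of WRKY18.

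Differences that were never called changed sign. For ATL16 the WRKY33 difference was 0.0366 with the tag ratio, 0.251 in the better 50%, and -0.226 to 0.0165 without 1 library. For WRKY18 against WRKY40, the merged site of AT1G51920 and AT1G51930 gave -0.0592 (tag ratio), -0.117 (not centred), -0.0741 (edgeR), -0.0658 (DESeq2) and -0.0505 to 0.122 without 1 library. The AT5G53110 promoter gave 0.0606 with the tag ratio, 0.0586 with edgeR and 0.0631 with DESeq2, and AT5G55970 gave -0.474 to 0.0930 without 1 library. The causes were not tested. The 0 h lists of WRKY33 and WRKY40 hold 9 to 44 peaks, so a RING gene missing there cannot be read as free of the factor.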
